A study of Mus musculus with 12 samples.

Results

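Hematopoietic stem cells that carried the Emu-myc transgene and lacked the inflammatory caspases Casp1 and Casp11 were compared with wild-type stem cells, which gives the joint change of both genotypes. The comparison set 3 libraries of Emu-myc Casp1 -/- Casp11 -/- mice (CE1, CE2 and CE3, group CE) against 3 of wild-type mice (WT2, WT3 and WT4, group WT), 6 of the 12 libraries of the series. Its members were the autosomal genes: 23975 of the 27179 genes in the count table lay on an autosome, and 13598 of them held enough counts to be tested, out of 14473 tested genes of any chromosome. Libraries of both single genotypes entered the same fit, namely Emu-myc with intact caspases (E1, E2 and E3, group E) and Casp1 -/- Casp11 -/- without the transgene (C1, C2 and C3, group C). Every mouse was of strain C57BL/6J, and each of the 12 libraries came from total RNA of sorted stem cells of 1 mouse, 3 mice per genotype. The labels used here give no age, no sex and no batch. Nothing in them says how the samples were handled apart, so p-values measure only the spread between these samples.

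Hematopoietic stem cells are rare bone marrow cells that mostly rest outside the cell cycle and give rise to every blood lineage. The Emu-myc transgene places Myc, a transcription factor that drives growth and division, under the enhancer of the immunoglobulin heavy chain, which is active above all in B-lineage cells, and such mice develop B-cell lymphoma. Caspase-1 is activated in inflammasomes and matures interleukin-1 family cytokines, while caspase-11, listed as Casp4 in the annotation, senses bacterial lipopolysaccharide in the cytosol. Both cleave gasdermin D, which opens pores and causes the lytic cell death called pyroptosis.

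Levels are given in CPM, counts scaled to a common effective library size (TMM), and changes as the log2 of CE over WT. Libraries held 24529611 to 34065910 counts, and a count was present for 17310 to 18863 genes in the CE and WT libraries. Stem and progenitor markers were present in all 12 libraries: Kit ranged from 364 to 508 CPM, Cd34 from 859 to 1160 CPM and Ly6a, which encodes Sca-1, from 20.8 to 33.2 CPM. The myeloid gene Mpo, named after its values were seen, was the highest gene of WT4, C1, C2 and CE3 (0.751% to 0.882% of counts). Over the 12 libraries, 18 tested neutrophil genes summed to 9058 to 14220 CPM, and 37 stem cell identity genes to 3359 to 4414 CPM. Purity of the sorted cells was not tested. Y-linked transcripts (Ddx3y, Eif2s3y, Kdm5d and Uty in sum) were at 121 CPM in CE1 and 117 CPM in CE2, at 0.263 CPM in CE3 and at no more than 0.169 CPM in the WT libraries. They were at 91.4 to 101 CPM in C and at no more than 0.221 CPM in E. CE1 and CE2 thus differed from all WT libraries in these transcripts as well as in genotype. So did all C libraries, so genotype and these transcripts cannot be told apart in C against WT. They go together in part in CE against E, in CE against C and in the departure from the sum tested below.

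Casp1 (gene 12362, chr9:5298517-5307281, mm10) was at 47.8, 39.7 and 29.8 CPM in WT2, WT3 and WT4 and at 5.88, 6.76 and 5.72 CPM in CE1, CE2 and CE3. All CE libraries lay below all WT libraries. Casp1 fell 6.39-fold (log2 -2.68, SE 0.17, adjusted p = 1.2e-06, edgeR's quasi-likelihood test with Benjamini-Hochberg adjustment, as for every adjusted p below). Casp4 (chr9:5308849-5336791) was at 12.5, 14.5 and 12 CPM in WT and at 9.79, 13.7 and 9 CPM in CE. Its groups overlapped, and its log2 difference of -0.27 (SE 0.19) had an adjusted p of 0.364. Gene-level counts thus did not check the Casp11 part of the label. Myc (chr15:61985341-61990361) was at 447, 437 and 394 CPM in WT and at 347, 345 and 410 CPM in CE. Its groups overlapped as well (log2 -0.22, SE 0.096, adjusted p = 0.153), so the counts of Myc did not check the transgene.

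Of the 13598 autosomal genes tested, 1427 passed at an adjusted p under 0.05 (10.5%), 590 higher in CE (4.34%) and 837 lower (6.16%). Most changes were modest. The median change was 1.47-fold among the genes that rose and 1.42-fold among those that fell, 885 of the 1427 changed by less than 1.5-fold, and 54 rose and 96 fell by at least 2-fold. The median log2 difference over all autosomal genes tested was 0.00047. In 1372 of the 1427 every CE library lay on one side of every WT library, which was so for 26.3% of all autosomal genes tested. With library totals alone in place of TMM factors, which moved that median to 0.062, the split turned to 799 higher and 601 lower. In bulk samples, fewer cells of a type and less RNA per cell cannot be told apart, which holds for every result below.

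**Figure D1:**
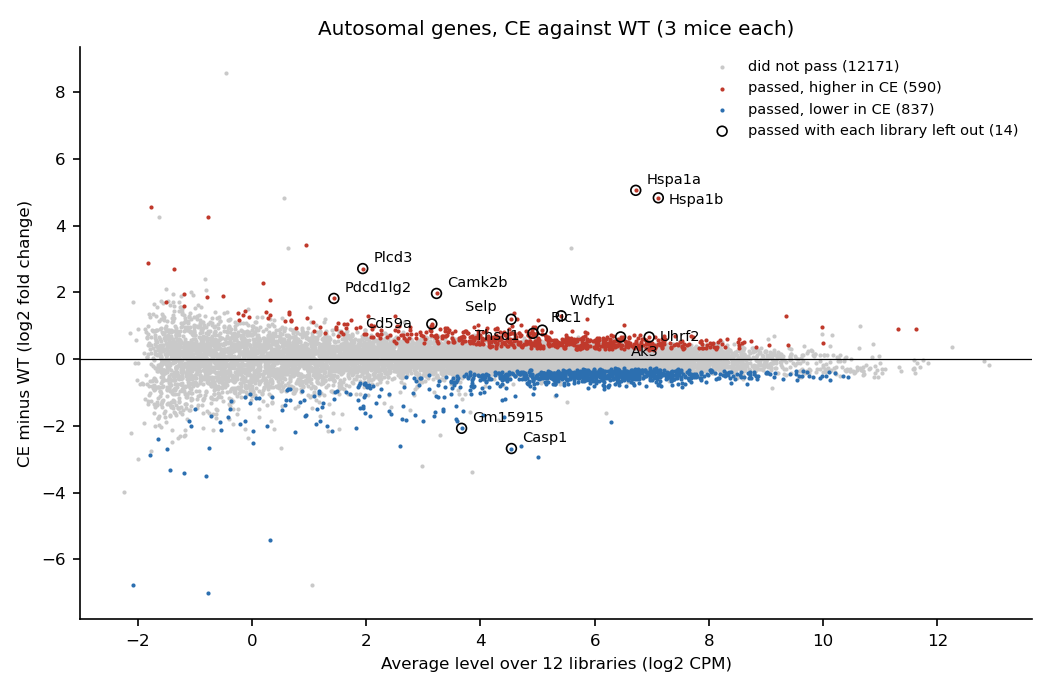
Change in CE against WT (log2 fold change, vertical axis) against the average level over the 12 libraries (log2 CPM, horizontal axis), 1 dot per autosomal gene tested. Red dots passed as higher (590), blue dots as lower (837), and the ringed genes passed with each of the 6 libraries left out in turn; Hspa1a and Hspa1b stand highest among them and Casp1 lowest.

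The number of calls rested on a few libraries and on the pooled spread. Leaving out CE1, CE2 or CE3 gave 387, 14 and 848 autosomal calls, and leaving out WT2, WT3 or WT4 gave 61, 1540 and 3166. With only the CE and WT libraries in the fit 25 genes passed, 16 higher and 9 lower. A covariate for the Y-linked transcripts was constant within every group but CE, so its difference of CE against WT was that of CE3 alone. CE2 and WT2 were thus the libraries on which most calls depended.

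A total of 14 genes passed with each of the 6 libraries left out, 12 higher and 2 lower, and all 14 also passed after trends on transcript length and GC content were removed. They were Hspa1a, Hspa1b, Plcd3, Camk2b, Pdcd1lg2, Wdfy1, Selp, Cd59a, Ric1, Thsd1, Ak3 and Uhrf2 among the genes that rose, and Casp1 and Gm15915 among those that fell. Cd59a, Thsd1 and Gm15915 were picked from their values. The single genotypes share the WT libraries with this comparison. Their values in the same fit are given below for most of these genes and for several lists. By these values the genes fall into those near the C level, those near the E level, and those outside either. The C libraries also differed from WT in Y-linked transcripts, so a C level need not be that of genotype alone.

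Camk2b, which encodes a subunit of calcium/calmodulin-dependent kinase II (chr11:5969629-6066357), was at 4.09, 3.92 and 3.25 CPM in WT and at 16.6, 13.5 and 14.2 CPM in CE. The CE libraries lay far above the WT libraries and beside the C libraries, which were at 15.5, 15.3 and 12.9 CPM. Camk2b rose 3.92-fold (log2 1.97, SE 0.22, adjusted p = 0.00108), with log2 1.95 in C against WT and 0.06 in E against WT. Plcd3, a phospholipase C gene (chr11:103070296-103101710), was at 0.548, 1.28 and 1.17 CPM in WT and at 6.71, 7.88 and 5.19 CPM in CE. It rose 6.57-fold (log2 2.72, SE 0.35, adjusted p = 0.00251), beside log2 2.60 in C and 0.17 in E against WT. Wdfy1, whose product binds endosomal lipid (chr1:79702262-79776143), was at 23.9, 27.6 and 22.6 CPM in WT and at 69.5, 70.2 and 43.1 CPM in CE. CE3 was the lowest of its CE libraries, still above all WT libraries, and Wdfy1 rose 2.47-fold (log2 1.30, SE 0.18, adjusted p = 0.0045). Its C libraries were at 66.3, 66.6 and 45.2 CPM.

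Selp encodes P-selectin, an adhesion molecule of platelets and endothelium that is also present on stem cells (chr1:164115264-164150026). It was at 15.2, 13.3 and 14.8 CPM in WT and at 28.3, 33.2 and 37.5 CPM in CE. All CE libraries lay above all WT libraries and in the range of the E libraries, which were at 31.9, 29.2 and 37.6 CPM, while the C libraries stood at 11.2, 14 and 11.9 CPM. Selp rose 2.29-fold (log2 1.20, SE 0.14, adjusted p = 0.00108). It was one of 3 genes, with Casp1 and Gm15915, that passed under all 19 alternative settings.

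For Cd59a and Thsd1 every CE library lay above every library of the other 3 groups. Cd59a, which protects cells from complement, was at 6.03, 5.07 and 6.45 CPM in WT and at 11.6, 11.7 and 13.1 CPM in CE, with 9.71 to 10.7 CPM in C and 5.92 to 7.71 CPM in E. It rose 2.08-fold against WT (log2 1.06, SE 0.15, adjusted p = 0.00387). Thsd1, a thrombospondin domain gene, was at 20.1, 23.8 and 24.3 CPM in WT and at 38.9, 39.2 and 38.6 CPM in CE. It rose 1.71-fold (log2 0.78, SE 0.11, adjusted p = 0.00494), with 24.5 to 31.7 CPM in E and 30.3 to 32.0 CPM in C. The predicted gene Gm15915 was at 22.4, 26 and 25.5 CPM in WT and at 6.99, 5.2 and 5.39 CPM in CE, and it fell 4.20-fold (log2 -2.07, SE 0.17, adjusted p = 2.83e-05). Its E libraries stood at 9.25 to 14 CPM and its C libraries at 8.47 to 9.96 CPM, between WT and CE.

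**Figure D2:**
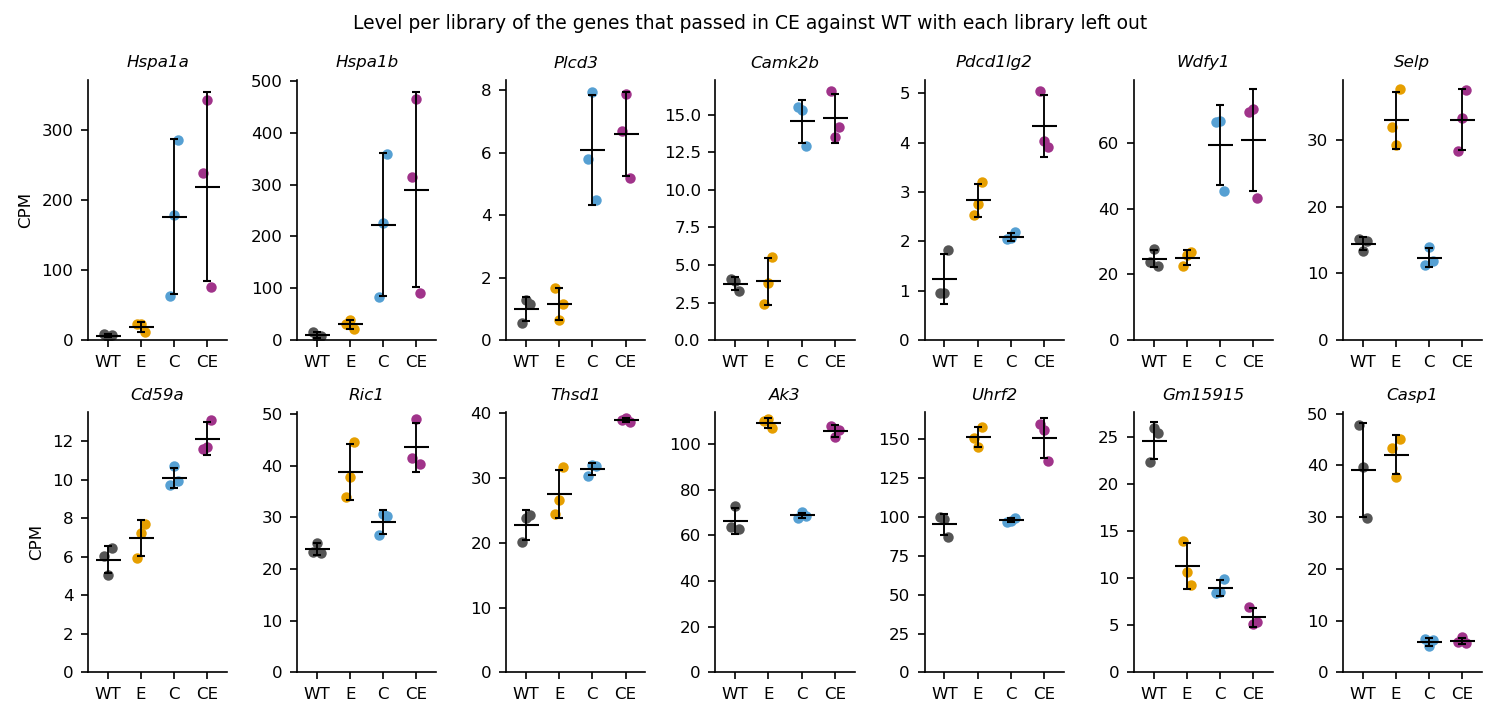
Level per library (CPM, vertical axis from 0) of the 14 genes that passed with each CE and WT library left out, in the 4 groups of 3 mice; each point is 1 library, the long bar the group mean and the whiskers 1 SD. Camk2b, Plcd3 and Wdfy1 sit with C, Selp, Ak3 and Uhrf2 sit with E, and Thsd1 is higher in CE (38.6 to 39.2 CPM) than in every other library.

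The largest rises were in inducible heat shock genes, whose products are chaperones that bind unfolded proteins after stress. Hspa1a (chr17:34969359-34972156) was at 8.15, 4.02 and 7.62 CPM in WT and at 238, 343 and 75.9 CPM in CE. Its near-identical neighbour Hspa1b (chr17:34956429-34959238) was at 16.1, 5.41 and 8.92 CPM in WT and at 315, 464 and 91 CPM in CE. All CE libraries lay above all WT libraries, and CE3 was the lowest of CE by a wide margin. Genes named as the largest rises and falls were picked with groups that did not overlap, so that separation follows from the rule. Hspa1a rose 33.4-fold (log2 5.06, SE 0.61, adjusted p = 0.00172) and Hspa1b 28.6-fold (log2 4.84, SE 0.63, adjusted p = 0.00251). Because reads may have been assigned to either copy, their sum is the safer value. It was 24.2, 9.43 and 16.5 CPM in WT, 553, 807 and 167 CPM in CE, 147, 405 and 643 CPM in C and 54.7, 62.6 and 32.5 CPM in E. Libraries of C and of CE thus differed among themselves several-fold, and all of them lay above every E and WT library.

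Hspb1, a small heat shock protein gene, was at 0.512, 0.135 and 0.347 CPM in WT and at 3.42, 5.74 and 1.41 CPM in CE. It had CE3 lowest too, and it rose 10.6-fold from a low level (log2 3.41, SE 0.58, adjusted p = 0.0112). Without CE2 its adjusted p was 0.0603. The co-chaperone gene Dnajb1, named with Hspe1 after the values were seen, was at 137, 142 and 214 CPM in WT and at 304, 271 and 223 CPM in CE and rose 1.62-fold (adjusted p = 0.0235). Hspe1, a mitochondrial chaperonin gene, was at 273, 203 and 214 CPM in WT and at 174, 155 and 149 CPM in CE and fell 1.44-fold (adjusted p = 0.0267). These were the 5 of 23 tested heat shock genes that passed, 4 higher and 1 lower (21.7%, against 10.5% of all autosomal genes tested). The median of the list was log2 -0.08. Other chaperone genes, named after their values were seen, did not pass: Hspa8 was at log2 0.08 (adjusted p = 0.715) and Hsph1 at log2 -0.09 (adjusted p = 0.792).

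Promoter sequence of 4 of these genes is shown because 3 of them rose by the largest amounts of the list and 1 fell. Each is the 250 bases before the RefSeq gene start in GRCm38.p6, the assembly also called mm10, read in the direction of transcription: Hspa1a at chr17:34972157-34972406 and Hspa1b at chr17:34959239-34959488 on the minus strand, and Hspb1 at chr5:135887669-135887918 and Hspe1 at chr1:55087898-55088147 on the plus strand. Capitals mark GAANNTTC, a pair of inverted half-sites of the heat shock element, which reads the same on both strands.
Hspa1a: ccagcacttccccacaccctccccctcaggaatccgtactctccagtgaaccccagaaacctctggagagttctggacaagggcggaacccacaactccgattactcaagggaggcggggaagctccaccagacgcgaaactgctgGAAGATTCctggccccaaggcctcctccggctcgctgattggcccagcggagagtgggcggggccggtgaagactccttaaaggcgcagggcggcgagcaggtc
Hspa1b: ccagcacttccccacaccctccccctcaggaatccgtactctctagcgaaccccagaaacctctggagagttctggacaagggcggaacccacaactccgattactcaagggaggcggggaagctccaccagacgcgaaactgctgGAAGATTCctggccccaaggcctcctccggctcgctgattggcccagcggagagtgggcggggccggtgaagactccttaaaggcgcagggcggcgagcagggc
Hspb1: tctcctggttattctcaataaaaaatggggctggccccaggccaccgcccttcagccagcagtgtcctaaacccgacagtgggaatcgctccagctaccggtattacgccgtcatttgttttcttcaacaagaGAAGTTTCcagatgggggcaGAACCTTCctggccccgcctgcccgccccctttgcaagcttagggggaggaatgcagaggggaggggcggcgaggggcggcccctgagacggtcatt
Hspe1: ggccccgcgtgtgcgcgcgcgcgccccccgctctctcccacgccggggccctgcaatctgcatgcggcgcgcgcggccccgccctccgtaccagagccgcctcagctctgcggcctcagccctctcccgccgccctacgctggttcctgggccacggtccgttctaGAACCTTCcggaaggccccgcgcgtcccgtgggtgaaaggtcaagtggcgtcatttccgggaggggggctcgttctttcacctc
Hspa1a and Hspa1b were identical at 247 of these 250 positions, and each held 1 match. Hspb1 held 2 matches and Hspe1, which fell, held 1. GAANNTTC occurred in 6.69% of the 32851 promoter windows of that length, and in 7 of the 24 windows (29.2%) of listed heat shock genes. Neither window of Dnajb1, which rose, held a match, so the presence of these letters did not separate the genes that rose from those that did not.

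Stem cell identity genes were higher in CE. Of the 37 tested members, 9 rose and none fell, 34 were above 0 and the median was log2 0.30, against 4.34% higher and a median of 0.00047 over all autosomal genes tested. Hlf, a transcription factor gene of self-renewing stem cells, was at 66.9, 90.4 and 87.5 CPM in WT and at 144, 131 and 129 CPM in CE. Its groups did not overlap, and it rose 1.65-fold (log2 0.72, SE 0.12, adjusted p = 0.011). Mecom, which encodes the stem cell regulator Evi1, was at 8.91, 11.3 and 10.7 CPM in WT and at 20.3, 17.7 and 15.1 CPM in CE, and rose 1.71-fold (log2 0.78, SE 0.16, adjusted p = 0.0139). WT2 was the lowest WT library for Hlf and Mecom.

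Procr, which encodes the surface marker EPCR, was at 8.59, 8.28 and 13.6 CPM in WT and at 18.4, 17.2 and 18.2 CPM in CE and rose 1.77-fold (log2 0.82, SE 0.17, adjusted p = 0.0148). The surface markers shared with later progenitors moved less. Kit was at log2 0.30 (SE 0.10, adjusted p = 0.0737), Cd34 at log2 0.14 (SE 0.11, adjusted p = 0.439) and Ly6a at log2 0.04 (SE 0.15, adjusted p = 0.884). Summed over the stem cell list, levels were 3359 to 3838 CPM in WT and 4221 to 4414 CPM in CE, with no overlap. The median of the list stood at log2 0.16 in E against WT and 0.08 in C against WT. Without CE2 no member passed (median 0.29), without WT2 2 did (median 0.29) and without CE1 5 did (median 0.28). The size of the median thus stayed in these fits while calls were lost. With the Y-linked covariate, which leaves CE3 alone against WT, the median was 0.28.

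Immediate early genes, which cells switch on within minutes of a stimulus and also of tissue handling, were higher in CE than in WT2 and WT3. Of 27 tested members 5 rose (Ier5, Klf4, Jun, Egr1 and Fos) and none fell, a share of 18.5% against 4.34% higher over all autosomal genes tested, and the median was log2 0.38. Egr1, a transcription factor gene, was at 201, 359 and 627 CPM in WT and at 1210, 998 and 712 CPM in CE, and rose 2.46-fold (log2 1.30, SE 0.30, adjusted p = 0.0218). Jun was at 1520, 1910 and 3370 CPM in WT and at 4520, 4280 and 3870 CPM in CE, and rose 1.86-fold (adjusted p = 0.021). Klf4 was at 56.4, 41.4 and 87.1 CPM in WT and at 143, 141 and 94.3 CPM in CE, and rose 2.05-fold (adjusted p = 0.0164). WT4 was the highest WT library and CE3 the lowest CE library for each of these 3 genes. Summed over the list, levels were 9317 CPM in WT2, 10540 CPM in WT3 and 22490 CPM in WT4, against 20330 to 23890 CPM in CE, so WT4 lay inside the CE range. Single libraries moved this list in both directions. Without WT4 16 members rose and the median was log2 0.85, without WT3 4 rose (median 0.12), without CE1 1 rose (median 0.23), without WT2 none did (median 0.16) and without CE2 none did (median 0.41). The median stood at log2 0.46 in C against WT and at -0.55 in E against WT.

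Among 19 tested brakes of the cell cycle 2 rose and 1 fell (15.8%, against 10.5% of all autosomal genes tested). Foxo3, a transcription factor gene of stem cell rest, was at 42.6, 56.8 and 76.7 CPM in WT and at 98.2, 100 and 91.5 CPM in CE and rose 1.65-fold (log2 0.72, SE 0.16, adjusted p = 0.0172). The inhibitor gene Cdkn2c was at 25.3, 22.3 and 25.5 CPM in WT and at 17.9, 16.4 and 18.1 CPM in CE and fell 1.39-fold (adjusted p = 0.0153). Outside the lists, the cytokine signalling inhibitor gene Socs3 was at 10.7, 13.5 and 23 CPM in WT and at 37.5, 35.8 and 35 CPM in CE and rose 2.3-fold (log2 1.20, SE 0.20, adjusted p = 0.0112). Vasn, a gene of a TGF-beta binding protein, rose 2.64-fold (adjusted p = 0.00886) and Arhgef28 2.46-fold (adjusted p = 0.0175).

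Transcripts of early B cells were lower in CE, although the Myc transgene is driven by a B-lineage enhancer. Of the 28 tested B lineage genes 11 fell (against 6.16% of all autosomal genes tested) and none rose, with a median of log2 -1.07. Vpreb1, a surrogate light chain gene, was at 18.2, 23.3 and 7.45 CPM in WT and at 4.91, 4.62 and 4.73 CPM in CE, and fell 3.44-fold (log2 -1.78, SE 0.33, adjusted p = 0.0132). Igll1, which encodes the other surrogate light chain, was at 23.1, 29.2 and 9.23 CPM in WT and at 6.95, 7.24 and 5.03 CPM in CE, and fell 3.21-fold (log2 -1.68, SE 0.34, adjusted p = 0.0142). Vpreb3 was at 8.18, 12.7 and 2.77 CPM in WT and at 2.42, 2.24 and 2.04 CPM in CE, and fell 3.55-fold (adjusted p = 0.0137). Pax5, the master transcription factor gene of B cells, was at 2.74, 3.38 and 1.47 CPM in WT and at 0.484, 1.05 and 0.46 CPM in CE, and fell 3.81-fold (adjusted p = 0.0166). WT4 was the lowest WT library for all 4 genes and lay above all CE libraries.

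Part of the reads of Vpreb1 may belong to its near-identical copy Vpreb2. Summed over the B lineage list, levels were 1029 to 1498 CPM in WT and 829.6 to 1109 CPM in CE, so the sums overlapped. In C against WT, Vpreb1, Igll1, Vpreb3 and Pax5 stood at log2 0.48, 0.74, 0.66 and 0.71, and none passed (adjusted p = 0.181 to 0.36). In E against WT they stood at log2 -2.30, -2.36, -1.47 and -1.50, of which Vpreb1 and Igll1 passed (adjusted p = 0.0161 and 0.0168). The median of the list was log2 0.48 in C against WT and -0.35 in E against WT. Without WT3 6 members fell and 1 rose (median -0.59), without CE1 3 fell, without CE3 5 fell and without WT4 16 fell. Without CE2 or WT2 no member passed (medians -1.12 and -1.23). With the Y-linked covariate, which leaves CE3 alone against WT, the median was -0.86.

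Erythroid and basophil-lineage genes were lower in CE too. Of 25 tested erythroid genes 7 fell (28%, against 6.16% over all autosomal genes tested), none rose, and the median was log2 -0.70. The median of these genes stood at log2 -0.43 in E against WT and -0.27 in C against WT. The carbonic anhydrase gene Car1 was at 191, 98.6 and 66.7 CPM in WT and at 45.5, 28.6 and 22.9 CPM in CE, and fell 3.67-fold (log2 -1.88, SE 0.40, adjusted p = 0.0164). Rhag, a red cell membrane gene, was at 11.4, 3.38 and 2.51 CPM in WT and at 2.04, 1.22 and 0.887 CPM in CE, and fell 4.17-fold (adjusted p = 0.0267). WT2 was the highest library for both. Tspo2 fell 3.49-fold (adjusted p = 0.0137). Of the largest falls outside the lists, Sphk1, a sphingosine kinase gene, fell 3.62-fold (adjusted p = 0.0372) and Slc25a21, a mitochondrial carrier gene, 3.96-fold (adjusted p = 0.0304), both with WT2 highest. The summed level of the list was 1337 CPM in WT2, 920.5 CPM in WT3 and 847 CPM in WT4, and 681.3 to 810.1 CPM in CE. Without WT2 the median was log2 -0.36 and no member passed, and without CE2 none passed (median -0.74). Without CE1, CE3 or WT4 the number lower was 3, 2 and 12.

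Of 21 tested genes of basophils, eosinophils and mast cells 10 fell (47.6%, against the same 6.16%) and none rose, with a median of log2 -1.04. That median stood at log2 -0.12 in E against WT and -0.59 in C against WT. Prg2, the gene of eosinophil major basic protein, was at 99.9, 59.9 and 55.2 CPM in WT and at 4.67, 6.29 and 17.2 CPM in CE, and fell 7.6-fold (log2 -2.93, SE 0.55, adjusted p = 0.0133). Epx, the eosinophil peroxidase gene, was at 18.5, 9.67 and 7.32 CPM in WT and at 1.11, 1.6 and 3.09 CPM in CE, and fell 6.1-fold (adjusted p = 0.011). Prg3 fell 4.46-fold (adjusted p = 0.0137), and the basophil protease gene Prss34 6.06-fold (adjusted p = 0.0417). In C against WT, Prg2, Epx, Prg3 and Prss34 stood at log2 -2.21, -1.51, -2.075 and -0.91. In E against WT they stood at log2 -1.18, -0.98, -1.33 and 0.30. Only Prg3 in C passed among these (adjusted p = 0.0461). CE3 was the highest CE library for Prg2, Epx and Prg3. All CE libraries lay below all WT libraries for these 4 genes, which the rule for the largest falls required. The summed level of the list was 1189 to 1308 CPM in WT and 919.5 to 930.9 CPM in CE, with no overlap. Without CE2 no member passed (median -1.08), and without WT2 1 did (median -0.65). Without CE1 6 fell and without CE3 4 fell. The median transcript length of the list was 1289 bases, and with length trends removed 6 members fell (median -0.75).

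Other mature cell types moved less or in both directions. Of all autosomal genes tested 10.5% passed. The share was 24.1% for monocyte, macrophage and dendritic genes, 18.2% for stromal and endothelial genes and 5.56% for neutrophil genes. It was 11.5% for megakaryocyte genes and 10% for lymphoid priming genes, both near the share of all genes. Of 29 tested monocyte, macrophage and dendritic cell genes 5 fell and 2 rose, Klf4 and Cd74, which other lists hold too (median log2 -0.33). The median of these genes was log2 0.06 in E against WT and -0.24 in C against WT. Cd5l, a gene of tissue macrophages, was at 1.61, 2.3 and 2.99 CPM in WT and at 0.38, 0.476 and 0.657 CPM in CE, and fell 4.5-fold (log2 -2.17, SE 0.34, adjusted p = 0.01). Slc40a1, the iron exporter gene of macrophages and erythroid cells, was at 15.7, 12.8 and 7.8 CPM in WT and at 5.36, 5.71 and 5.42 CPM in CE, and fell 2.2-fold (adjusted p = 0.0133). Of 18 neutrophil genes 1 rose, the integrin gene Itgam (1.48-fold, adjusted p = 0.0235), and the summed levels overlapped (9655 to 14220 CPM in WT, 10020 to 13940 CPM in CE). None of 23 T and NK genes passed, and the smallest p belonged to Gzma (log2 -2.67, SE 0.99, adjusted p = 0.0893), which was at 4.83 CPM in WT3 and at 0.475 and 1.13 CPM in WT2 and WT4. Of 20 stromal and endothelial genes 11 were tested; Cxcl12 fell 3.88-fold from 0.95, 1.08 and 1.17 CPM to 0.38, 0.408 and 0.0328 CPM (adjusted p = 0.0322), and Pdgfrb rose 1.5-fold (adjusted p = 0.0147). Megakaryocyte genes gave 2 rises, with Selp among them, and 1 fall among 26 tested: Pf4, a platelet chemokine gene, fell 1.74-fold (adjusted p = 0.0137). Of 20 lymphoid priming genes Cd52 fell 1.84-fold (adjusted p = 0.0148) and Il7r, the interleukin-7 receptor gene, fell 1.72-fold (adjusted p = 0.0275).

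**Figure D3:**
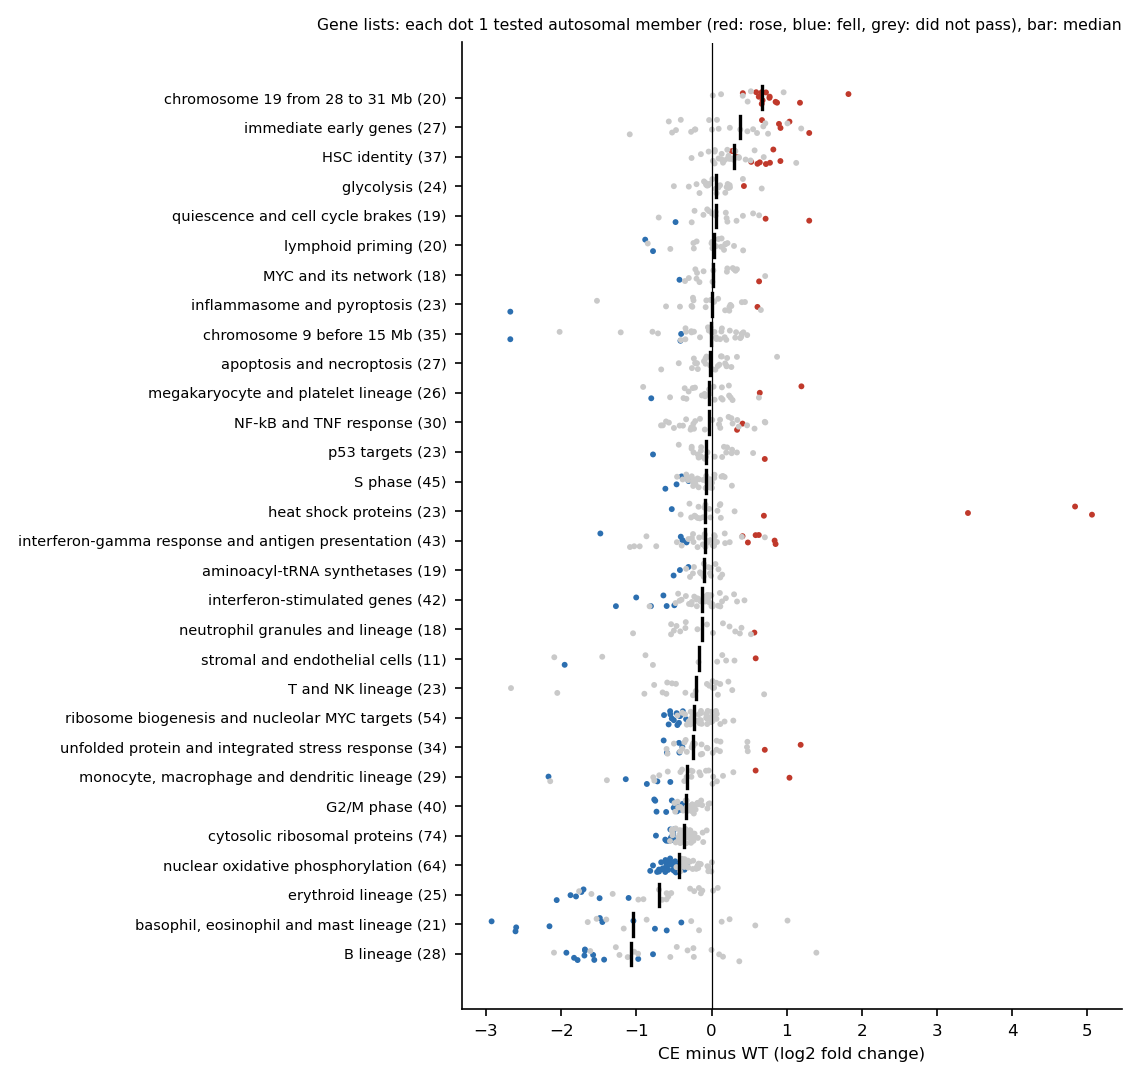
Change in CE against WT (log2 fold change, horizontal axis) of the tested autosomal members of each gene list, 1 dot per gene (red rose, blue fell, grey did not pass), with a bar at the median and the number tested in brackets. Medians run from -1.07 in the B lineage to 0.67 in the chromosome 19 segment.

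Many genes of oxidative phosphorylation and of the cytosolic ribosome fell in CE, and transcript length went with this. Of 64 tested nuclear genes of oxidative phosphorylation, the chain that makes ATP in mitochondria, 33 fell and none rose (51.6% passed, against 6.16% lower over all autosomal genes tested, median log2 -0.43). Their median was log2 -0.20 in E against WT and -0.41 in C against WT. Uqcrb, a complex III subunit gene, was at 87.4, 72.2 and 62.9 CPM in WT and at 48.9, 44.5 and 41.4 CPM in CE, and fell 1.65-fold (log2 -0.72, SE 0.13, adjusted p = 0.0122). The complex I subunit genes Ndufs4 and Ndufb3 fell 1.51-fold and 1.62-fold (adjusted p = 0.0132 and 0.0137). Of 74 cytosolic ribosomal protein genes 14 fell (18.9%) and all lay below 0 (median log2 -0.37). Their median was log2 -0.19 in E against WT and -0.395 in C against WT, so CE lay near the C level. Rps29 fell 1.67-fold (adjusted p = 0.0192), Rpl36al 1.52-fold (adjusted p = 0.0174) and Rpl23 1.45-fold (adjusted p = 0.0216). Ribosomal protein genes summed to 96550 to 125900 CPM in WT and 78800 to 98270 CPM in CE, with an overlap.

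Genes that fell in CE had short transcripts: the median length of the longest transcript was 1952 bases among them, 5225 bases among the genes that rose and 3353 bases among all tested, over the 91.4% of genes with a length. Among genes of up to 2176 bases 30 rose and 453 fell, and among genes of 4769 bases or more 332 rose and 50 fell. The median of these short and long genes was log2 -0.19 and 0.16 in CE against WT. It was -0.19 and 0.16 in C against WT as well, and -0.093 and 0.062 in E against WT. Per library, the median deviation of the long genes from their mean level, minus that of the short genes, was -0.26, -0.01 and -0.37 (log2) in WT2, WT3 and WT4 and 0.13, 0.32 and -0.05 in CE1, CE2 and CE3. The median was 1232 bases for oxidative phosphorylation genes and 1114 bases for ribosomal protein genes. With length trends removed from each library, an alternative added once the values were known, 695 genes passed, 601 of them among the 1427. Without CE2 or WT2 no member of either list passed; without CE1 12 oxidative phosphorylation genes and 4 ribosomal protein genes fell, without CE3 23 and 5, and without WT3 49 and 41. With length trends removed the oxidative phosphorylation list had 9 members lower (median -0.17) and the ribosomal protein list 3 (median -0.14).

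**Figure D4:**
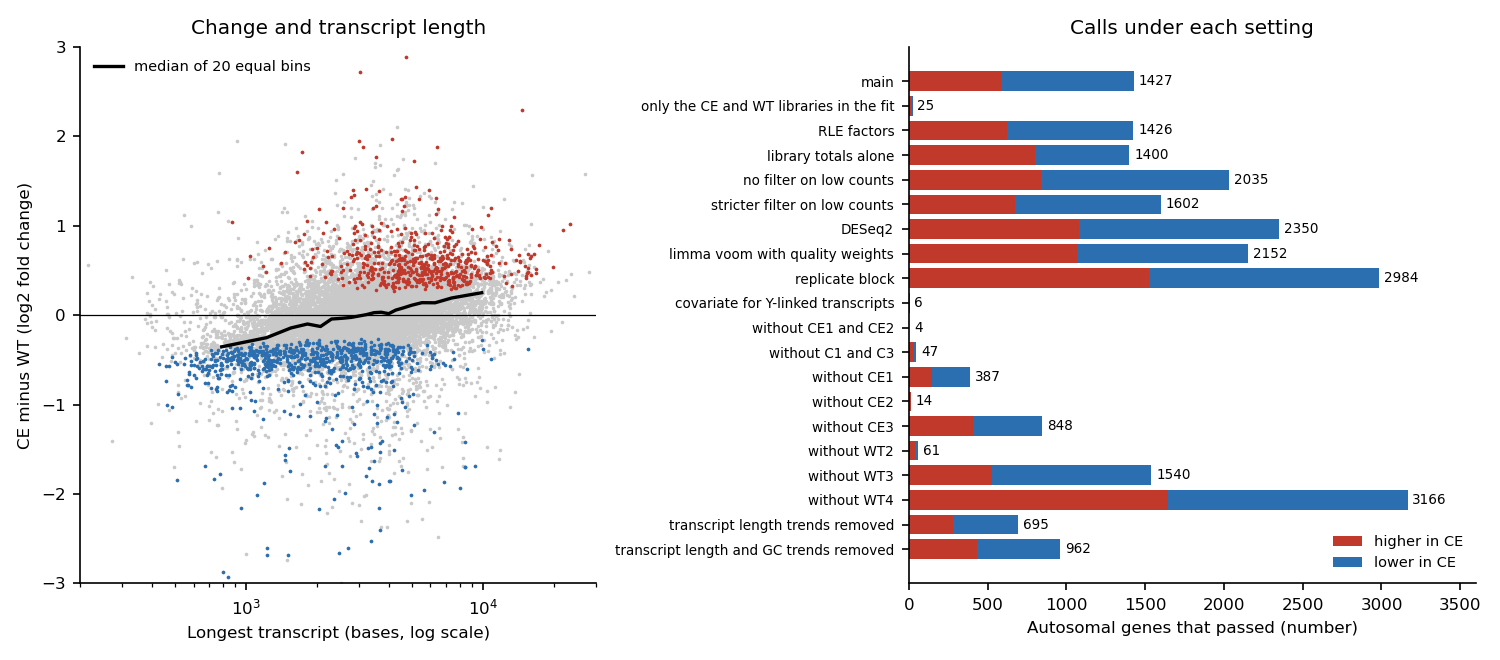
Left, change in CE against WT (log2 fold change, drawn from -3 to 3) against the length of the longest transcript (bases, log scale), with the median of 20 equal bins; right, the number of autosomal genes that passed under each setting, red higher and blue lower. The binned median climbs from below 0 for short transcripts to above 0 for long ones, and the counts run up to 3166 around the 1427 of the reported fit. The bars for the Y-linked covariate and for the fit without CE1 and CE2 rest on CE3 alone in CE.

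Of 54 tested ribosome biogenesis genes and nucleolar MYC targets 13 fell (24.1%, against 6.16% over all autosomal genes tested), none rose and 41 did not pass (median log2 -0.23). Their median was log2 -0.16 in E against WT and -0.11 in C against WT. Ranbp1, a nuclear transport gene, was at 387, 325 and 302 CPM in WT and at 245, 228 and 218 CPM in CE, and fell 1.47-fold (log2 -0.55, SE 0.11, adjusted p = 0.0135). Gar1, of the RNA-modifying H/ACA particle, fell 1.49-fold (adjusted p = 0.0142) and Wdr12 fell 1.30-fold (adjusted p = 0.023). In the MYC network itself, 18 genes tested, 1 rose and 1 fell (11.1%, near the 10.5% of all autosomal genes tested). The MYC target Odc1 fell 1.34-fold (adjusted p = 0.0395). Mxd4, an antagonist that competes for the MYC partner Max, rose 1.55-fold (adjusted p = 0.0257). Of 19 aminoacyl-tRNA synthetase genes Rars, Hars and Farsb fell (1.42-fold, 1.34-fold and 1.24-fold), 15.8% against 6.16% lower over all autosomal genes tested. Of 24 glycolysis genes the glucose transporter gene Slc2a1 rose 1.35-fold (adjusted p = 0.0413), a share of 4.17%, near the 4.34% higher over all. With length trends removed 5 ribosome biogenesis genes were lower (median -0.18) and no aminoacyl-tRNA synthetase gene passed. Without CE2 or WT2 no gene of either list passed.

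Of 40 tested G2/M genes, which act in mitosis, 12 fell (30%, against 6.16% over all autosomal genes tested), none rose and none lay above 0 (median log2 -0.34). Their median was log2 -0.02 in E against WT and -0.22 in C against WT. Sums over the list overlapped, at 5589, 4739 and 3999 CPM in WT and at 3958, 4008 and 3264 CPM in CE. Ube2c, which marks cyclins for degradation, was at 288, 209 and 197 CPM in WT and at 146, 134 and 133 CPM in CE, and fell 1.68-fold (log2 -0.75, SE 0.13, adjusted p = 0.0132). Cks2 was at 138, 89.5 and 96.3 CPM in WT and at 69.8, 61 and 60 CPM in CE, and fell 1.7-fold (adjusted p = 0.0132). Birc5, the survivin gene, was at 218, 158 and 146 CPM in WT and at 108, 103 and 104 CPM in CE, and fell 1.66-fold (adjusted p = 0.0132). WT2 was the highest library for these 3 genes. The median length of the list, 3410 bases, was close to that of all genes, and with length trends removed 10 members fell (median -0.32). Without CE2 no member passed (median -0.44), and without WT2 2 did (median -0.15). Without CE3 7 fell and without WT4 24 fell. Of 45 S phase genes 5 fell (11.1%, against 6.16% over all autosomal genes tested), among them Tipin (1.53-fold, adjusted p = 0.0188), Rfc4 (1.32-fold, adjusted p = 0.0188) and Gins1 (1.38-fold, adjusted p = 0.0261), and the median was log2 -0.08.

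Interferon-stimulated genes were lower for 6 of 42 tested members (14.3%, against 6.16% over all autosomal genes tested) and higher for none (median log2 -0.12). Their median was log2 -0.13 in E against WT and -0.20 in C against WT. Ifi27l2a was at 20.5, 20.8 and 26.3 CPM in WT and at 12.7, 8.43 and 12.6 CPM in CE, and fell 2-fold (log2 -1.0, SE 0.23, adjusted p = 0.0188). The ubiquitin-like modifier gene Isg15 fell 1.75-fold (adjusted p = 0.0342) and the virus-tethering gene Bst2 fell 1.51-fold (adjusted p = 0.0374). None of the 42 passed with length trends removed, and with GC trends removed as well 1 rose and 2 fell. Of 43 interferon-gamma response and antigen presentation genes 6 rose and 4 fell (23.3%, against 10.5% of all autosomal genes tested, median log2 -0.08). Cd274, given below with its chromosome 19 neighbours, was among the 6. The class II genes H2-Eb1 and H2-Aa, whose products present peptides to CD4 T cells, were among those that rose. H2-Eb1 was at 32.4, 36.5 and 37.2 CPM in WT and at 62.5, 70.3 and 57.1 CPM in CE, and rose 1.79-fold (log2 0.84, SE 0.14, adjusted p = 0.0112). H2-Aa was at 40.2, 42.2 and 47.5 CPM in WT and at 67.5, 76.9 and 56.3 CPM in CE, and rose 1.55-fold (log2 0.63, SE 0.14, adjusted p = 0.0164). The class I light chain gene B2m, named after its values were seen, fell 1.33-fold (adjusted p = 0.0338). With length trends removed 6 of the 43 rose and none fell (median log2 -0.06).

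Of 23 tested inflammasome and pyroptosis genes 2 passed (8.7%, near the 10.5% of all autosomal genes tested): Casp1, and Txnip, a thioredoxin inhibitor, which was at 211, 320 and 256 CPM in WT and at 406, 399 and 397 CPM in CE and rose 1.53-fold (log2 0.61, SE 0.12, adjusted p = 0.0142). The sensor gene Nlrp3, named with Gsdmd after the values were seen, was at 8.29, 7.98 and 14.6 CPM in WT and at 2.08, 1.7 and 6.9 CPM in CE (log2 -1.52, SE 0.48, adjusted p = 0.0527). Gsdmd, the pore-forming substrate, was at log2 -0.07 (SE 0.11, adjusted p = 0.71). None of 27 apoptosis and necroptosis genes passed. The death-promoting genes Bmf (log2 0.87, SE 0.29, adjusted p = 0.0677) and Bax (log2 -0.44, SE 0.14, adjusted p = 0.061) had the smallest p. Of 23 p53 targets Sesn2 rose 1.63-fold (adjusted p = 0.0173) and Perp fell 1.72-fold (adjusted p = 0.0197), again 8.7%. Of 30 NF-kB and TNF response genes Nfkb1 (1.27-fold, adjusted p = 0.0376) and Icam1 (1.33-fold, adjusted p = 0.0439) rose. Their share of 6.67% compares with 4.34% higher over all autosomal genes tested. Genes of the unfolded protein and of the integrated stress responses gave 2 rises and 5 falls among 34 (20.6%, against 10.5%, median log2 -0.24). Trib3 was 2.27-fold higher (adjusted p = 0.0135) and Selenos 1.51-fold lower (adjusted p = 0.0205). With length trends removed 2 of the 34 rose and 1 fell (median log2 -0.16).

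A block of neighbouring genes on chromosome 19 rose together. Of 34 genes that start between 28 and 31 Mb (mm10) 20 were tested. Of these 14 rose (70%, against 4.34% higher over all autosomal genes tested). None fell and all lay above 0, with a median of log2 0.67. The segment was set with earlier results of these data known, so these shares describe it and are not a test. Ak3, a mitochondrial adenylate kinase gene (chr19:28995053-29048080), was at 63.6, 73 and 62.8 CPM in WT and at 108, 103 and 106 CPM in CE, and rose 1.59-fold (log2 0.67, SE 0.083, adjusted p = 0.00204). Uhrf2, a gene of a reader of modified DNA (chr19:30030430-30093726), was at 100, 98.4 and 87.3 CPM in WT and at 160, 156 and 136 CPM in CE, and rose 1.58-fold (log2 0.66, SE 0.090, adjusted p = 0.0038). Ric1, of a Golgi trafficking complex (chr19:29522216-29605921), rose 1.83-fold (log2 0.87, SE 0.12, adjusted p = 0.0038). The E libraries were as high, with Ak3 at 107 to 111 CPM and Uhrf2 at 145 to 158 CPM, and the C libraries lay with WT, at 67.8 to 70.1 CPM and 97 to 99.5 CPM.

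The segment holds both ligands of the T-cell inhibitory receptor PD-1. Cd274, the PD-L1 gene (chr19:29362107-29388095), was at 19.7, 24.9 and 17 CPM in WT and at 38.7, 40.9 and 31.9 CPM in CE, and rose 1.81-fold (log2 0.85, SE 0.14, adjusted p = 0.0112). Pdcd1lg2, the PD-L2 gene (chr19:29410919-29472927), was at 0.95, 0.947 and 1.82 CPM in WT and at 5.05, 4.04 and 3.91 CPM in CE, and rose 3.53-fold (log2 1.82, SE 0.25, adjusted p = 0.00387). Pdcd1lg2 was at 2.54 to 3.2 CPM in E and at 2.04 to 2.19 CPM in C, between WT and CE. Summed over the segment, levels were 532.8 to 604.3 CPM in WT and 584.7 to 593.9 CPM in C, against 857.6 to 922.7 CPM in E and 850.7 to 938.1 CPM in CE. Its median was log2 0.67 in E against WT and 0.05 in C against WT. The rise of the segment kept its size where calls ended: without CE2 4 members passed (median 0.64), and with only the CE and WT libraries 3 did (median 0.68). With the Y-linked covariate, which leaves CE3 alone against WT, the median was 0.59.

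Of 59 genes on chromosome 9 that start before 15 Mb, the region of Casp1, 35 were tested, and Casp1, Dcun1d5 and Cwc15 fell (8.57%, near the 10.5% of all autosomal genes tested, median log2 -0.01). Dcun1d5 was at 111, 88.2 and 84.2 CPM in WT and at 73, 68.4 and 71.5 CPM in CE, and fell 1.33-fold (adjusted p = 0.0245). Cwc15, a splicing factor gene, fell 1.32-fold (adjusted p = 0.0268), and with length and GC trends removed it was at log2 0.0022 (adjusted p = 0.988).

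**Figure D5:**
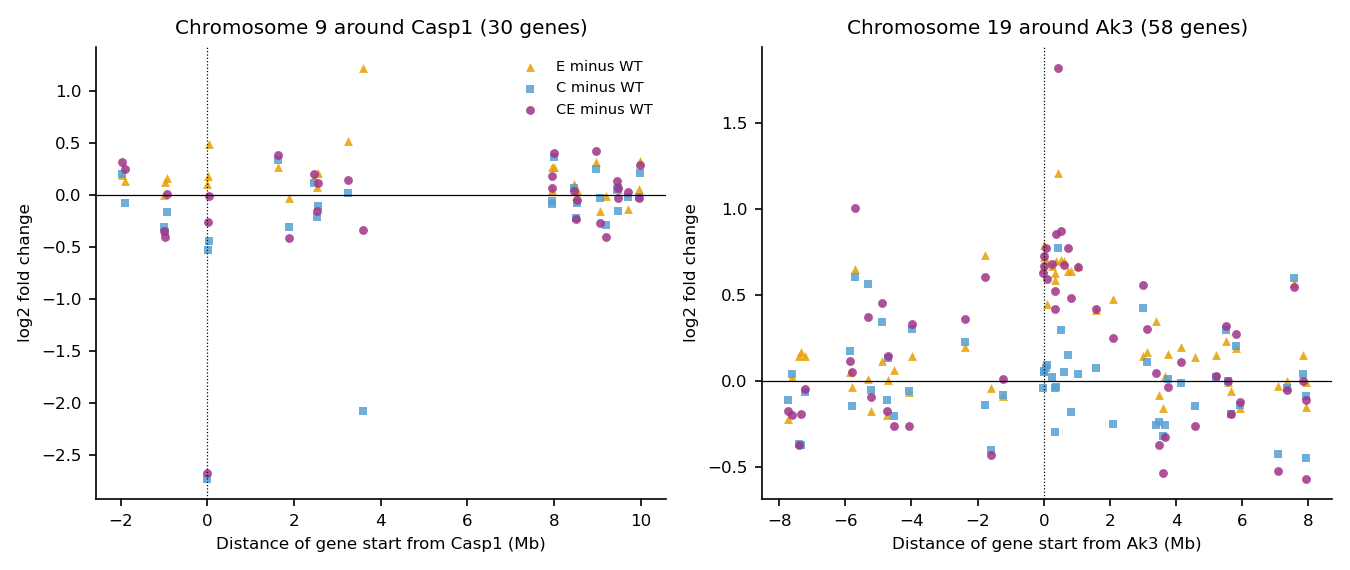
Log2 fold change against WT (vertical axis) of tested genes by distance of their start from Casp1 on chromosome 9 (left, 30 genes) and from Ak3 on chromosome 19 (right, 58 genes), in Mb; triangles are E, squares C and circles CE. On chromosome 19 a run of CE and E symbols around and after Ak3 lies above 0 while the C symbols lie near 0, and on chromosome 9 Casp1 stands at -2.68 in CE.

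The joint change was then set against the single genotypes. In the same fit the Emu-myc group alone gave 12 autosomal calls against WT (0.0882%, of which 0.0515% were higher, 0.0368% lower), 83 in C against WT (0.61%; 0.346% higher and 0.265% lower), 29 in CE against C (0.213%; 0.0662% higher and 0.147% lower) and 213 in CE against E (1.57%; 0.463% higher and 1.1% lower), beside the 1427 in CE against WT. These comparisons share libraries, so the counts are given side by side. Whether the joint change differed from the sum of the single changes on the log2 scale was tested by CE - E - C + WT for each gene. No autosomal gene passed with edgeR (0%), 287 had an unadjusted p under 0.05 (2.11%) and the smallest adjusted p was 1. DESeq2 called none (281 at an unadjusted p under 0.05) and limma voom none (336). The median SE of this quantity was log2 0.20 against 0.14 for CE against WT, so this test was less precise than that of the joint change. The absence of a call thus does not show that the single changes add up. With no filter on low counts 35 genes passed, 5 higher and 30 lower.

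For genes with a clear joint change the departure from the sum did not pass either. It was log2 0.23 for Selp (SE 0.19), -0.05 for Casp1 (SE 0.23), -0.04 for Camk2b (SE 0.31), -0.10 for Ak3 (SE 0.12) and 0.01 for Cd59a (SE 0.21). For Hspa1a it was log2 -1.23 (SE 0.75) and for Hspa1b -1.22 (SE 0.77). The 5 genes with the smallest p in this test did not pass and are given as values. Edar, a receptor gene of skin appendages, was at log2 -3.34 (SE 0.73), with 0.146 to 0.203 CPM in WT, 0.296 to 0.519 CPM in CE and up to 1.42 CPM in C. The calcium channel gene Cacna1c was at log2 -3.65 (SE 0.91) from levels of at most 1.14 CPM, and the macrophage lectin gene Siglec1 at -3.16 (SE 0.79) from at most 1.9 CPM. Stab2, a scavenger receptor gene of sinusoidal endothelium, was at log2 -2.03 (SE 0.49), and Irf4, a lymphoid transcription factor gene, at -1.78 (SE 0.46), with Irf4 at 1.12 to 1.35 CPM in CE and 1.7 to 5.12 CPM elsewhere.

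Most single calls above depend on which libraries are kept. Of the 82 named genes that passed, 11 passed with each library left out, and the other 71 lost the call without at least 1 library, with adjusted p values up to 0.287. Leaving out CE2 ended 71 of these calls, WT2 60, CE1 28, CE3 18, WT3 6 and WT4 1, and in none of these fits did a call turn its direction.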

How the data were processed

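Counts of reads per gene in 12 libraries were analysed as deposited by the authors in 1 table, with no normalization. Reads were aligned with STAR 2.5.3 to mm10, per the submitters' processing notes; the read counter, annotation, strand setting and filters were not given in any of the sources used here, so reads of overlapping or near-identical genes may be shared. Genes were tested with edgeR 4.0.16 in R 4.3.3 (quasi-likelihood, group means of all 12 libraries, TMM factors, low counts filtered by group, two-sided, Benjamini-Hochberg adjustment over 14473 genes, threshold 0.05), and autosomal genes were reported. The median SE of a log2 difference was 0.14. Genes with no position in the annotation held 2.45% of the counts of WT2 and 0.546% (CE2) to 1.08% (C3) of those of the other libraries. The highest gene of WT2, at 1.95% of its counts, had no symbol. Genes with no position entered the fit and were not among the autosomal genes reported. Alternatives used DESeq2 1.42.0, limma 3.58.1, other factors, filters and covariates, and left out libraries. Code was tested on simulated data.

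The genes and gene lists were chosen with earlier results of these data known. Named by rule were Casp1, Casp4 and Myc, the 10 largest rises and falls (passed, mean log2 CPM of at least 1, groups not overlapping), up to 3 passing members per list by p (otherwise the 2 smallest p), the 5 smallest p of the departure from the sum, and 7 stem cell markers. One named gene is not reported here.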

Additional observations from a re-analysis of the deposited data

How the results depend on the processing

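Against the 1427 autosomal genes that passed in CE against WT, the count was 1426 with DESeq2's size factors in edgeR, 1400 with library totals alone and 1602 with a stricter filter. It was 2035 with no filter, 2350 with DESeq2 and 2152 with limma voom. It was 25 with only the CE and WT libraries, 6 with the covariate for Y-linked transcripts, 4 without CE1 and CE2, and 47 without C1 and C3, which held more genes with a count than the other libraries. Leaving out 1 library gave 14 to 3166. Removing trends on transcript length gave 695, and on length and GC content 962, of which 656 were shared and 10 of the 1427 turned direction; no call turned under the other alternatives. The direction of Cwc15 turned with length and GC trends removed (log2 0.00224); the cause was not tested beyond that fit. The departure from the sum had no call except 35 with no filter, leaving aside fits with 1 library in a group.

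The labels give no pairing of same-numbered samples. Of 15 such pairs the correlation of deviations ran from -0.263 to 0.17, and 4 were over 0.1. Pairs of unlike number reached -0.278 for CE2 with WT4 and 0.319 for CE3 with WT4. Shared handling was not tested. A fit with the replicate block gave 2984 calls in CE against WT. WT4 is the only sample with its number, so the block also takes it out of the contrast, and leaving out WT4 alone gave 3166.

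The precision is limited by 3 mice a group, with a median SE of log2 0.14. Most calls depend on the spread pooled over 4 groups.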
